A study of Homo sapiens with 108 samples.

Results

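C32TG is an established human melanoma line, and these data describe its RNA 1 h after a 2 Gy dose of either carbon ions or X-rays. Carbon ions are heavy particles that deposit their energy densely along a track, whereas X-rays are photons that deposit it sparsely. The members are 12 of the 18 arrays of this line, chosen by their labels alone, in a series of 6 lines with 18 arrays each. They comprise 3 arrays 1 h after 2 Gy of carbon ions (C-ions_2Gy1h), 3 unirradiated arrays of the carbon-ion set (C-ions_0Gy), 3 arrays 1 h after 2 Gy of X-rays (X-rays_2Gy1h) and 3 unirradiated arrays of the X-ray set (X-rays_0Gy). Each beam was set against its own unirradiated arrays, so the comparisons share no control. The line also has 3 arrays per beam at 3 h, and the 5 other lines (HMV-I, 92-1, Colo679, HMV-II and MeWo) had the same treatments. The labels name no separate cultures, so p-values measure the spread between arrays, which may be technical. Total RNA was measured, and for a whole culture fewer cells with a transcript cannot be told apart from less RNA per cell.

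DNA breaks activate the kinase ATM, which stabilises the transcription factor p53 and also releases NF-kB from its inhibitor I-kappa-B. Targets of p53 such as CDKN1A and MDM2 build up over hours, while NF-kB and stress kinases switch on short-lived immediate early genes within the first hour. Growth signalling through the MAP kinase pathway keeps up its own inhibitors, among them the DUSP phosphatases and the Sprouty proteins, whose RNAs are short-lived.

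Replicate arrays correlated with r = 0.992 to 0.998 across probes. Arrays of different beams correlated with r = 0.974 to 0.992, a range that also covers pairs with the 3 h arrays of the line. Replicate 3 of X-rays_2Gy1h stood slightly apart from the other 2 (r = 0.992 to 0.993). The arrays had 1854 to 6775 missing values, which were mostly dim spots. Of 11 measured melanocyte markers, 10 had a median over the 12 arrays above the level of the filter, and GPR143 had one below it. The filter itself took the mean over the series, and all 11 were tested. They were led by TYR at a median log2 level of 8.40, MITF at 6.99 and PMEL at 5.67. MLANA at 0.57, SOX10 at 0.78 and PAX3 at -0.12 were dim, and the median of the list was 2.56. The filter lay at a log2 level of -0.407, so passing it does not alone show melanocyte identity. All 7 measured markers of dedifferentiated melanoma had a median above that level too, with a list median of 1.62 and TNC highest at 5.66. Of the markers of other cell types, 5 of 8 for fibroblasts had a median above that level (FAP, COL1A2 and COL1A1 highest, THY1 not tested). So did 2 of 6 for keratinocytes (KRT5 with a value on 1 array) and 1 of 5 for leukocytes (CD79A). The mean levels per array of these lists overlapped between irradiated and unirradiated arrays for carbon ions (fibroblast markers 0.65 to 0.95 against 0.56 to 0.85) and for X-rays (0.60 to 0.80 against 0.48 to 0.83).

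The first question was what changed within 1 h of each beam. Of 29291 probes tested, 2826 differed 1 h after carbon ions (9.65% of the probes), 991 higher (3.38%) and 1835 lower (6.26%), and 2198 differed 1 h after X-rays (7.5%), 729 higher (2.49%) and 1469 lower (5.02%), at an adjusted p under 0.05 in limma. On the level of genes, each taken as its brightest probe, 819 of 12727 passed after carbon ions (6.44%) and 583 after X-rays (4.58%). Of these genes 442 rose (3.47%) and 377 fell (2.96%) after carbon ions, and 287 rose (2.26%) and 296 fell (2.33%) after X-rays. The excess of falls among probes was therefore absent among genes after carbon ions and slight after X-rays. The changes were small. The median size among called probes was 0.33 on the log2 scale after either beam, and 154 probes passed 1.5-fold after carbon ions and 128 after X-rays, of which 7 and 19 were rises. Leaving out replicate 2 of X-rays_0Gy lowered the X-ray count to 1442. Scaling of the arrays moved the split between rises and falls. Rises made up 35.1% of the carbon-ion probe calls and 33.2% of the X-ray probe calls here. They made up 72.7% and 41.6% with median centring, and 10.7% and 3.6% with a quantile normalization that ignored missing values. The mean change of both beams was called for 4395 probes, 1789 higher (6.11%) and 2606 lower (8.9%).

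The beams called many of the same probes although their controls were separate. Called after both beams in the same direction were 1206 probes, 224 higher and 982 lower, which is 42.7% of the carbon-ion calls and 54.9% of the X-ray calls. Rises made up 18.6% of these shared calls, 36.6% with median centring and 3.63% with a quantile normalization that ignored missing values. Among genes the sharing was weaker. There 65 were higher and 142 lower after both beams, which is 25.3% of the carbon-ion gene calls and 35.5% of the X-ray gene calls. Another 2 genes moved in opposite directions. Across all probes the changes after carbon ions and after X-rays correlated with r = 0.49 (Spearman 0.38), and across genes with r = 0.31 (Spearman 0.28). These are descriptions across probes and genes, which are not independent.

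**Figure D1:**
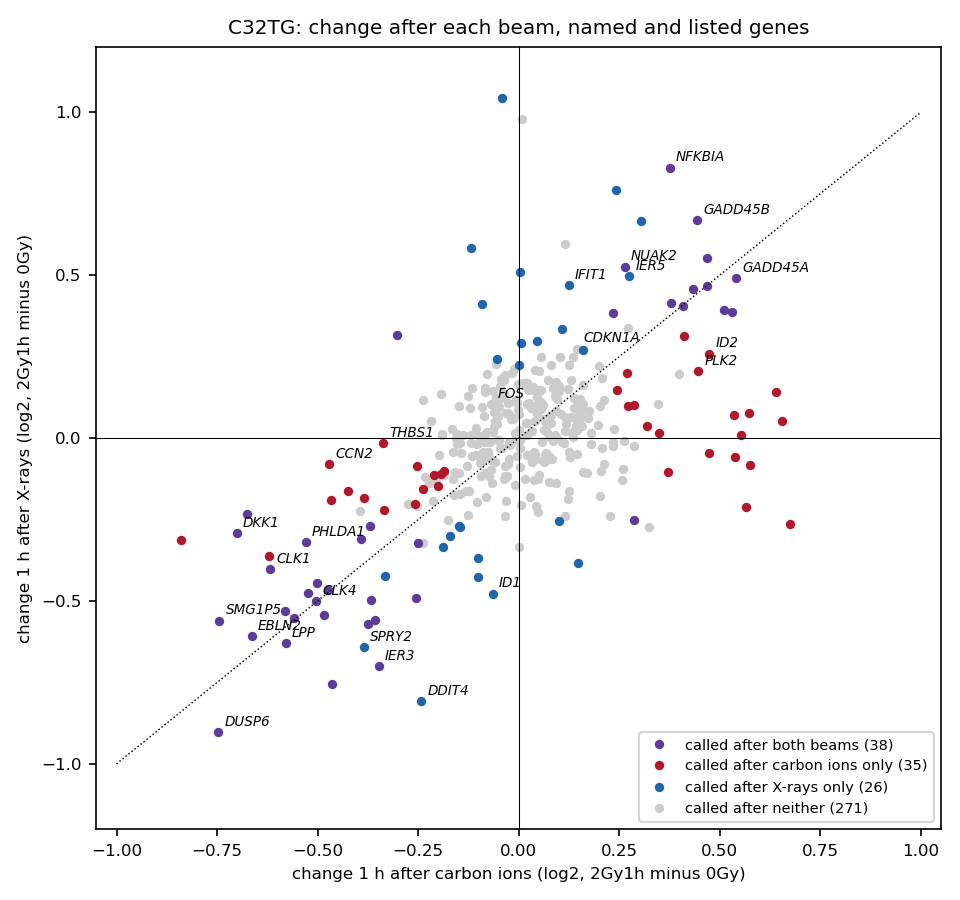
Each point is 1 of 370 named or listed genes, with its log2 change 1 h after carbon ions on the horizontal axis and 1 h after X-rays on the vertical axis, coloured by which beam called it; the dotted line marks equal changes, and ALDH1L1-AS2 lies above the drawn range. NFKBIA, GADD45A and GADD45B sit in the upper right and DUSP6, CLK1, CLK4, SMG1P5 and EBLN2 in the lower left.

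The genes that rose after both beams included the stress genes GADD45A and GADD45B and the feedback inhibitor of NF-kB. NFKBIA encodes I-kappa-B-alpha, which binds NF-kB and carries it out of the nucleus. It stood at 3.91, 3.87 and 3.73 on the log2 intensity scale in C-ions_2Gy1h, against 3.40, 3.47 and 3.52 in C-ions_0Gy. It stood at 3.42, 3.52 and 3.56 in X-rays_2Gy1h, against 2.60, 2.83 and 2.59 in X-rays_0Gy. In both beams every irradiated array was above every unirradiated one. The rise was 1.30-fold after carbon ions (log2 0.38 ± 0.08 SE, limma adjusted p = 0.00437) and 1.78-fold after X-rays (0.83 ± 0.08, adjusted p = 4.42e-06). The unirradiated arrays of the beams themselves differed, by 0.79 on the log2 scale with the carbon-ion set higher. The difference between the beams, -0.45 (95% interval -0.69 to -0.22), did not pass over all probes (adjusted p = 0.16).

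GADD45A, a p53 target that acts in cell cycle arrest and stress kinase signalling, gave 6.45, 6.53 and 6.39 in C-ions_2Gy1h against 5.85, 5.89 and 6.01 in C-ions_0Gy. It gave 6.07, 6.08 and 5.97 in X-rays_2Gy1h against 5.52, 5.52 and 5.60 in X-rays_0Gy. No array overlapped in either beam, and the rises of 1.45-fold (0.54 ± 0.06, limma adjusted p = 7.67e-06) and 1.41-fold (0.49 ± 0.06, adjusted p = 3.74e-05) differed by 0.05 (95% interval -0.12 to 0.22). Its relative GADD45B, an NF-kB and stress target, rose by 0.44 ± 0.07 after carbon ions (adjusted p = 0.000509) and by 0.67 ± 0.07 after X-rays (adjusted p = 1.54e-05). Its arrays read 4.21, 4.19 and 4.04 in C-ions_2Gy1h against 3.64, 3.69 and 3.78 in C-ions_0Gy, and 3.87, 4.02 and 3.84 in X-rays_2Gy1h against 3.29, 3.23 and 3.20 in X-rays_0Gy. A second, dim GADD45B probe did not move (changes of -0.0015 and 0.013).

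The upstream stretches of NFKBIA and GADD45B are shown because NFKBIA and GADD45B are the listed NF-kB targets called as higher after both beams. They are the 120 bases before the RefSeq start in GRCh38.p14, at chr14:35404750-35404869 on the minus strand and chr19:2476007-2476126 on the plus strand. Capitals mark matches to the NF-kB consensus. DKK1, at chr10:52314161-52314280 on the plus strand, is shown beside them as a gene that holds a match and fell.
NFKBIA: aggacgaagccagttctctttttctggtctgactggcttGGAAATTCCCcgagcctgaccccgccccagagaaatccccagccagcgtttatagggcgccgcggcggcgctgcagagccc
GADD45B: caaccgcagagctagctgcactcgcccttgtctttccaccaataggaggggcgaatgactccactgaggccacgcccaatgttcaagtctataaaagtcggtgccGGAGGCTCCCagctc
DKK1: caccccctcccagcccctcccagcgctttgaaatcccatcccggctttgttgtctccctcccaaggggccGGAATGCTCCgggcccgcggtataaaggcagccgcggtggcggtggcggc

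Both strands of the 250 bases before the start were searched for 4 motifs, the NF-kB consensus, the AP-1 motif TGANTCA, the CRE motif TGACGTCA and the ETS motif CCGGAAG. The NF-kB consensus was found in 11.9% of 27305 promoters and in 13.8% of the 10268 promoters of tested genes. Counted from the start, NFKBIA held 1 match at -81 to -72, and GADD45B held 2, at -163 to -154 and at -15 to -6, of which the second lies in the stretch shown. DKK1 held 1 at -50 to -41. None of the 4 motifs was found in this window for ATF3, IER5, RGS16, PLK2, DUSP6, SPRY2, PHLDA1, CLK1 or CLK4, which says only that these letters are not there. The search took 1 start per gene, so promoters at any other start of these genes were not covered.

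The remaining genes that rose after both beams included signalling regulators. ATF3, a stress-induced transcription factor, read 2.99, 2.96 and 2.98 in C-ions_2Gy1h against 2.69, 2.78 and 2.76 in C-ions_0Gy, and 2.51, 2.70 and 2.70 in X-rays_2Gy1h against 2.23, 2.30 and 2.23 in X-rays_0Gy. Its arrays did not overlap in either beam (0.23 ± 0.06, limma adjusted p = 0.0164, after carbon ions and 0.38 ± 0.06, adjusted p = 0.000525, after X-rays). The carbon-ion call was lost without replicate 1 of C-ions_0Gy, without replicate 1 or 3 of C-ions_2Gy1h, with quantile normalization that ignored missing values and in the fit to the arrays of all lines. RGS16, which switches off G-protein signals, rose by 0.38 and 0.41 after carbon ions and X-rays, with adjusted p of 0.00042 and 0.000287. NUAK2, a stress-regulated kinase, was 0.26 higher after carbon ions (limma adjusted p = 0.0109) and 0.53 higher after X-rays (adjusted p = 4.87e-05). The carbon-ion call was lost in 5 of 23 alternatives, among them both scalings that ignored missing values. H3-4, a histone H3 gene, rose by 0.47 and 0.55 (adjusted p = 0.0279 and 0.0121), calls lost in the fit to the arrays of all lines; the carbon-ion call was also lost without any 1 of the C-ions_2Gy1h arrays or without replicate 3 of C-ions_0Gy, and the X-ray call without replicate 1 of X-rays_0Gy. SPACA9 rose by 0.41 after each beam (a second, dim probe by 0.27 after carbon ions, with 0.15 after X-rays not passing), POLR2J4, a pseudogene related to an RNA polymerase II subunit, by 0.53 and 0.39, and the antisense transcript ZNF674-AS1 by 0.47 after each.

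**Figure D2:**
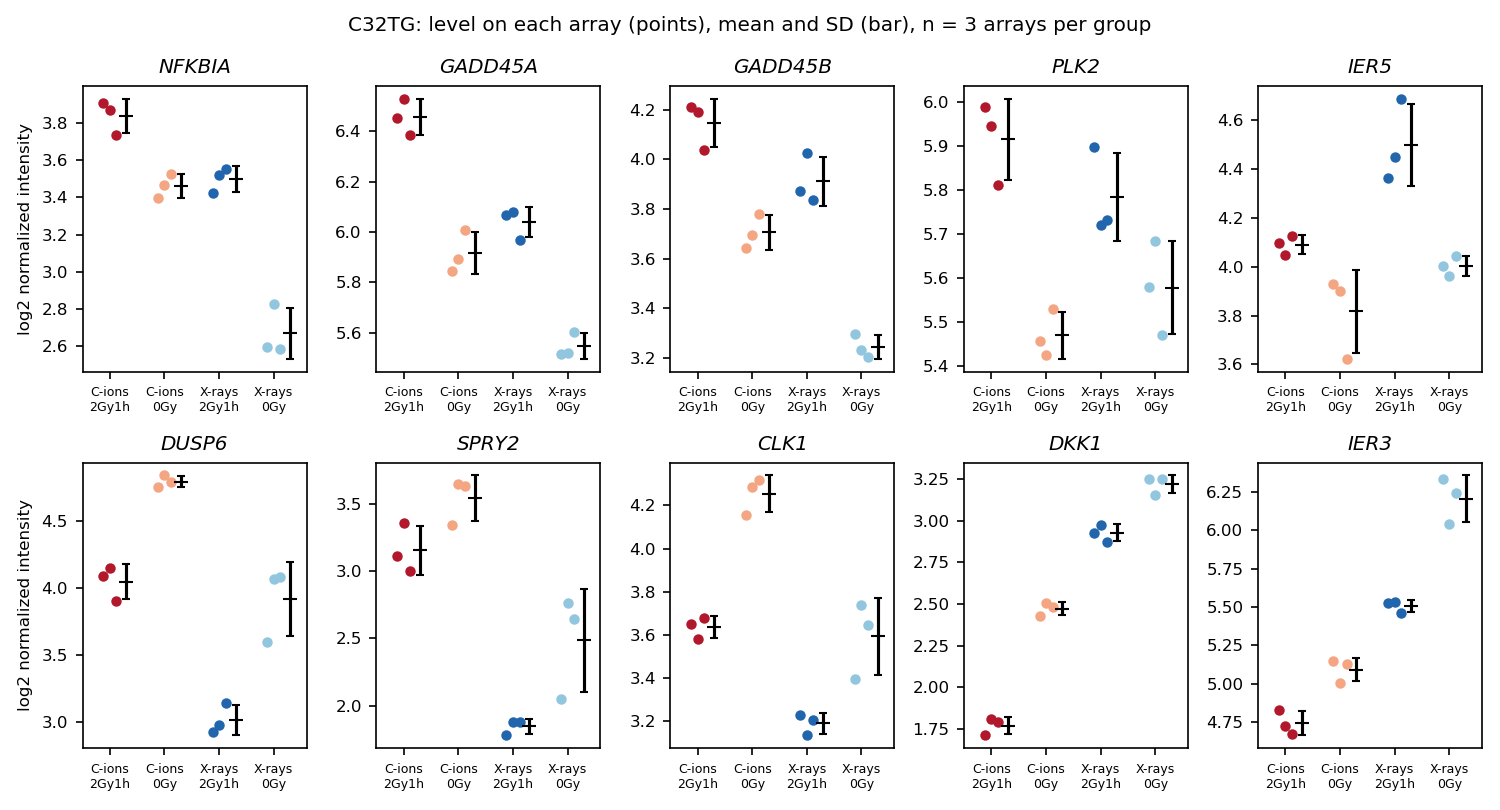
Log2 normalized intensity (vertical axes, each with its own range) of 10 genes on each of the 12 C32TG arrays, 3 points per group, with the mean and SD as a bar beside them. NFKBIA, GADD45A and GADD45B are higher and DUSP6, CLK1, DKK1 and IER3 lower in every irradiated array than in every unirradiated array of the same beam.

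Of 29 p53 targets tested, 3 rose and none fell after carbon ions (GADD45A, PLK2 and PLK3, against 3.47% of all genes called as higher), and 2 rose and none fell after X-rays (GADD45A and RPS27L, against 2.26%). Over the list, the median change came to 0.05 (carbon ions) and 0.07 (X-rays), where that of all genes came to 0.03 and 0.015. With median centring 5 rose and 1 fell after carbon ions. PLK2, a kinase of the stress response, read 5.99, 5.95 and 5.81 in C-ions_2Gy1h against 5.46, 5.42 and 5.53 in C-ions_0Gy, and 5.90, 5.72 and 5.73 in X-rays_2Gy1h against 5.58, 5.68 and 5.47 in X-rays_0Gy. It passed after carbon ions (0.45 ± 0.07, limma adjusted p = 0.00024) and not after X-rays (0.21, adjusted p = 0.0707), and the difference of 0.24 between the beams did not pass either (adjusted p = 0.41). PLK3, its relative, rose by 0.29 after carbon ions (adjusted p = 0.0069), a call lost in the fit to the arrays of all lines and with quantile normalization that ignored missing values, and changed by 0.10 after X-rays (adjusted p = 0.408). The RPS27L rise of 0.29 after X-rays was lost with median centring, with the deposited scaling, with both scalings that ignored missing values and in the fit to the arrays of all lines.

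CDKN1A, the p21 inhibitor of cyclin-dependent kinases and the best known p53 target, passed after neither beam. It read 7.32, 7.43 and 7.48 in C-ions_2Gy1h against 7.33, 7.32 and 7.14 in C-ions_0Gy, and 7.55, 7.55 and 7.56 in X-rays_2Gy1h against 7.24, 7.34 and 7.25 in X-rays_0Gy. The carbon-ion arrays overlapped their controls and the X-ray arrays did not (0.15, limma adjusted p = 0.417, and 0.27, adjusted p = 0.0892). The mean change of both beams, for which 11.1% of genes were called, was 0.21 and passed at an adjusted p of 0.0403. MDM2, the ubiquitin ligase of p53, changed by -0.09 and 0.07, and PPM1D, the phosphatase that ends the damage signal, by -0.16 and -0.18, and neither passed.

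At 3 h, shown as a description only, the same probes were far higher. CDKN1A stood 1.91 above control after carbon ions and 1.79 after X-rays, MDM2 1.07 and 1.48, PPM1D 1.35 and 1.25, PLK3 1.59 and 1.15, and ATF3 1.5 and 1.39. GADD45A reached 1.35 and 1.27, while GADD45B was at -0.17 and 0.04.

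**Figure D3:**
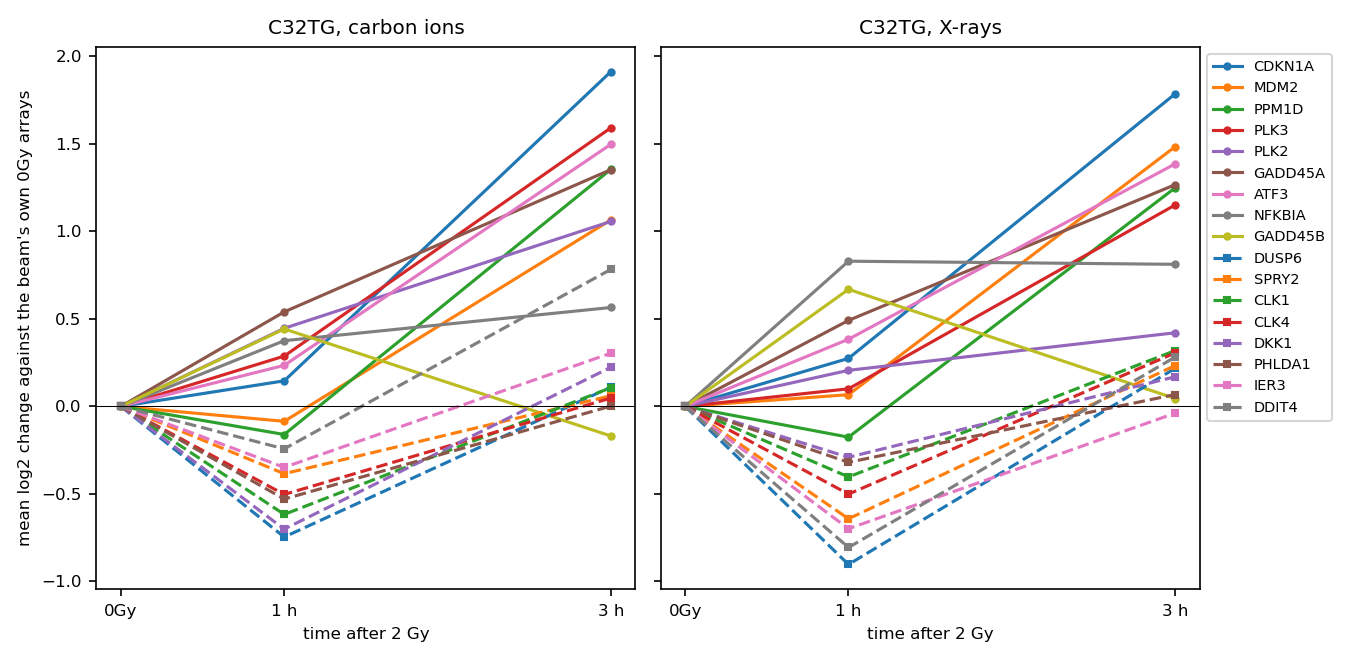
Mean log2 change against the beam's own 0Gy arrays (vertical axis) at 1 h and 3 h after 2 Gy (horizontal axis), carbon ions left and X-rays right; solid lines are genes of the damage and stress response, dashed lines are genes below control at 1 h. CDKN1A is at 1.91 and 1.79 at 3 h, and DUSP6 is at -0.75 and -0.90 at 1 h and at 0.11 and 0.22 at 3 h.

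Among 24 NF-kB targets and subunits, 3 rose and 1 fell after carbon ions (3.47% and 2.96% of all genes), and 3 rose and 3 fell after X-rays (2.26% and 2.33%). The median change of the list was 0.03 and 0.004. With median centring 7 rose and none fell after carbon ions. After each beam NFKBIA and GADD45B rose. IRF1, an interferon-regulated transcription factor, was called after carbon ions (0.27, limma adjusted p = 0.0111) and LIF, a cytokine, after X-rays (0.33, adjusted p = 0.0254). Both calls were lost with the scalings that ignored missing values and in the fit to the arrays of all lines. The IRF1 call was also lost without replicate 2 of C-ions_0Gy or of C-ions_2Gy1h. The LIF call was also lost without any 1 of the X-rays_0Gy arrays or without replicate 1 of X-rays_2Gy1h. A second, dim IRF1 probe changed by 0.12 after carbon ions and did not pass. TNFAIP3, the ubiquitin-editing inhibitor of NF-kB, changed by 0.13 and 0.00 and did not pass. NFKBIZ, a nuclear I-kappa-B protein, fell by 0.50 after X-rays (adjusted p = 0.0103), with 1 array overlapping and a call lost without replicate 2 of X-rays_0Gy, and sat at the threshold after carbon ions (-0.37, adjusted p = 0.0483), a call lost in 16 of 23 alternatives. CXCL8, the cytokine interleukin-8, fell by 0.33 after X-rays (adjusted p = 0.00492), with 2.07, 1.99 and 1.90 in X-rays_2Gy1h against 2.37, 2.27 and 2.33 in X-rays_0Gy. BCL3, another listed member, also fell after X-rays, a call lost in 14 of 23 alternatives.

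Of 31 immediate early genes, 1 rose and 4 fell after carbon ions (3.47% and 2.96% of all genes) and 2 rose and 5 fell after X-rays (2.26% and 2.33%). The median change of the list lay at -0.02 for each beam. With median centring the carbon-ion counts were 4 higher and 1 lower. The classical members did not pass after either beam: FOS changed by -0.07 and 0.10, FOSB by -0.08 and -0.05, JUNB by 0.09 and 0.13, EGR1 by -0.05 and 0.07, and IER2 by 0.05 and 0.10. JUN did not pass either, and changed by -0.34 after X-rays (limma adjusted p = 0.0552). IER5, a regulator of heat shock factor and of phosphatase activity, was the member besides ATF3 that rose. It read 4.36, 4.45 and 4.69 in X-rays_2Gy1h against 4.0, 3.96 and 4.04 in X-rays_0Gy (0.50 ± 0.09, adjusted p = 0.00171), and 4.10, 4.05 and 4.13 in C-ions_2Gy1h against 3.93, 3.90 and 3.62 in C-ions_0Gy (0.27, adjusted p = 0.0595). The arrays of neither beam overlapped, and the difference between the beams did not pass (-0.22, 95% interval -0.49 to 0.04, adjusted p = 0.61).

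IER3, an immediate early gene that protects cells from death signals, fell. It read 4.83, 4.73 and 4.68 in C-ions_2Gy1h against 5.15, 5.01 and 5.13 in C-ions_0Gy, and 5.53, 5.53 and 5.46 in X-rays_2Gy1h against 6.33, 6.04 and 6.24 in X-rays_0Gy. No array overlapped, and the falls were 1.27-fold (limma adjusted p = 0.00264) and 1.62-fold (adjusted p = 6.17e-06). The unirradiated arrays of the carbon-ion set were 1.11 lower than those of the X-ray set on the log2 scale. Its carbon-ion call was lost with median centring and with the deposited scaling. ZFP36L1, which speeds the decay of AU-rich mRNAs, fell by 0.25 and 0.32, and FOSL1, an AP-1 subunit, by 0.37 and 0.27, and these 4 calls were lost under the same scalings. The X-ray call of FOSL1 (adjusted p = 0.0498) was lost in 17 of 23 alternatives and the carbon-ion call of ZFP36L1 in 10. A second FOSL1 probe fell by 0.40 after carbon ions and did not pass after X-rays (-0.20). KLF6, a zinc-finger transcription factor, fell after X-rays by 0.37 (adjusted p = 0.000695), as did its second probe by 0.40, and changed by -0.10 after carbon ions.

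DUSP6, a feedback inhibitor of the MAP kinase pathway, fell after both beams. It encodes the cytoplasmic phosphatase of ERK. It read 4.09, 4.16 and 3.91 in C-ions_2Gy1h against 4.76, 4.84 and 4.79 in C-ions_0Gy, and 2.93, 2.98 and 3.14 in X-rays_2Gy1h against 3.60, 4.07 and 4.09 in X-rays_0Gy. No array overlapped. It was 1.68-fold lower after carbon ions (-0.75 ± 0.11, limma adjusted p = 0.000261) and 1.87-fold lower after X-rays (-0.90 ± 0.11, adjusted p = 6.90e-05), and the beams differed by 0.16 (95% interval -0.18 to 0.49). Of 15 listed MAPK feedback genes, 3 fell and none rose after carbon ions (2.96% of all genes called as lower), and 4 fell and none rose after X-rays (2.33%). The list had a median change of -0.08 (carbon ions) and -0.07 (X-rays). With median centring 1 member, DUSP6, still fell after carbon ions.

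SPRY2, a Sprouty inhibitor of receptor kinases, read 1.78, 1.88 and 1.88 in X-rays_2Gy1h against 2.05, 2.77 and 2.65 in X-rays_0Gy (-0.64 ± 0.14, limma adjusted p = 0.00619). In the carbon-ion set it read 3.11, 3.36 and 3.00 in C-ions_2Gy1h against 3.34, 3.65 and 3.63 in C-ions_0Gy, with 1 array overlapping (-0.38, adjusted p = 0.0913). DUSP5, a nuclear ERK phosphatase, fell after X-rays by 0.43 (adjusted p = 0.000411) and changed by -0.10 after carbon ions, and the difference of 0.32 did not pass (adjusted p = 0.22). PHLDA1, a gene induced by ERK, fell by 0.53 ± 0.07 after carbon ions (adjusted p = 9.86e-05) and by 0.32 ± 0.07 after X-rays (adjusted p = 0.00899). Both of its calls were lost with median centring and with the deposited scaling, and its X-ray call also without replicate 3 of X-rays_0Gy. A second PHLDA1 probe fell by 0.36 after each beam, and another changed by -0.25 and -0.13 and did not pass. EPHA2, an ephrin receptor, fell after carbon ions by 0.25 (adjusted p = 0.0109), a call also lost with those scalings.

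CLK1 and CLK4, kinases that phosphorylate splicing factors, fell after both beams. Of 21 listed splicing kinases and factors, 4 fell and none rose after carbon ions (CLK1, CLK2, CLK4 and SRSF1, against 2.96% of all genes called as lower), and 2 fell and none rose after X-rays (CLK1 and CLK4, against 2.33%). Over this list the median change came to -0.11 (carbon ions) and -0.01 (X-rays), and with median centring 2 members fell and 1 rose after carbon ions. CLK1 read 3.65, 3.58 and 3.68 in C-ions_2Gy1h against 4.16, 4.28 and 4.32 in C-ions_0Gy, and 3.23, 3.14 and 3.21 in X-rays_2Gy1h against 3.39, 3.74 and 3.65 in X-rays_0Gy. No array overlapped (1.53-fold lower, limma adjusted p = 2.96e-05, and 1.32-fold lower, adjusted p = 0.00233). CLK4 fell by 0.50 ± 0.08 after each beam (adjusted p = 0.000639 and 0.000995). The CLK1 and CLK4 calls held in all 23 alternatives, and those of CLK2 and SRSF1 were lost in 9 and 11. The further SRSF1 probes did not pass (-0.36 and 0.03 after carbon ions). These counts take the brightest probe of each gene. After X-rays a further SRSF3 probe rose by 0.49 (limma adjusted p = 0.00208), while its other further probes did not pass. A further, dim SRSF4 probe fell by 0.56 (adjusted p = 0.00335). At 3 h CLK1 stood at 0.11 and 0.32 and CLK4 at 0.05 and 0.31.

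DKK1, a secreted inhibitor of Wnt signalling, read 1.71, 1.81 and 1.79 in C-ions_2Gy1h against 2.43, 2.51 and 2.48 in C-ions_0Gy, and 2.93, 2.98 and 2.88 in X-rays_2Gy1h against 3.25, 3.16 and 3.25 in X-rays_0Gy. It was 1.63-fold lower after carbon ions (-0.70 ± 0.06, limma adjusted p = 4.20e-07) and 1.22-fold lower after X-rays (-0.29 ± 0.06, adjusted p = 0.00341), and the X-ray call was lost with median centring and with the deposited scaling. Other genes lower after both beams had less studied roles: SMG1P5, a pseudogene of the kinase SMG1, fell by 0.74 and 0.56 and its second probe by 0.48 and 0.52. EBLN2, a gene derived from a bornavirus, fell by 0.66 and 0.61, and CAMSAP1, a microtubule minus-end protein, by 0.56 and 0.55, though a second, dim CAMSAP1 probe changed by 0.13 and -0.09 and did not pass. LPP, a focal adhesion protein, fell by 0.58 and 0.63, but a second, dim LPP probe changed by -0.04 and -0.07. MIR3142HG, the host transcript of miR-146a, fell by 0.58 and 0.53.

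Some falls were called after one beam. Among the carbon-ion falls without overlap of arrays LINC01467 ranked first (log2 -1.14 to -0.65 when single arrays were left out). Its call was lost in the fit to the arrays of all lines. After carbon ions the secreted matrix proteins CCN2 and THBS1 fell. CCN2 read 4.84, 4.80 and 4.81 in C-ions_2Gy1h against 5.34, 5.25 and 5.27 in C-ions_0Gy (1.39-fold lower, limma adjusted p = 0.000194), and 5.17, 5.11 and 5.38 in X-rays_2Gy1h against 5.20, 5.37 and 5.33 in X-rays_0Gy (-0.08, adjusted p = 0.562). The carbon-ion arrays were apart and the X-ray arrays overlapped, but the difference of -0.39 between the beams did not pass (adjusted p = 0.16). THBS1 changed by -0.34 (adjusted p = 0.000704) and -0.02, with a difference of -0.32 that did not pass either, and its carbon-ion call was lost with both median centrings, the deposited scaling and the fit to the arrays of all lines. PRKDC, the catalytic subunit of DNA-dependent protein kinase, fell by 0.42 after carbon ions (adjusted p = 0.000739) and changed by -0.16 after X-rays. PIF1, a DNA helicase, fell by 0.47 (adjusted p = 4.91e-05) and changed by -0.19, while its second probe fell after both, by 0.30 and 0.32. HSPA1A, a heat shock chaperone, fell by 0.39 after carbon ions. Further probes of THBS1 and PRKDC also fell after carbon ions, by 0.20 (adjusted p = 0.0466) and 0.29 (adjusted p = 0.0303), and another, dim PRKDC probe did not pass. The calls of PRKDC and HSPA1A at the brightest probe were lost with median centring and with the deposited scaling.

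After X-rays DDIT4, an inhibitor of the growth regulator mTORC1, read 1.61, 1.71 and 1.85 in X-rays_2Gy1h against 2.34, 2.53 and 2.72 in X-rays_0Gy. It read 1.81, 1.85 and 1.51 in C-ions_2Gy1h against 1.91, 2.04 and 1.95 in C-ions_0Gy. The X-ray fall was 1.75-fold (limma adjusted p = 8.89e-05) and the carbon-ion change did not pass (-0.24, adjusted p = 0.171). The unirradiated X-ray arrays were 0.57 above the unirradiated carbon-ion arrays, and a second DDIT4 probe did not move (0.06 and 0.03). ID1, an inhibitor of differentiation factors that responds to bone morphogenetic proteins, fell by 0.48 after X-rays (adjusted p = 0.000137) and its second probe by 0.62, against -0.07 and -0.22 after carbon ions. Here too the unirradiated arrays differed, by 0.67, with the X-ray set higher, and the beam difference of 0.41 did not pass (adjusted p = 0.11).

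Rises were also called after one beam at the brightest probe. After carbon ions ID2, a relative of ID1, rose by 0.47 ± 0.09 (limma adjusted p = 0.00188), with 3.97, 3.92 and 3.88 in C-ions_2Gy1h against 3.57, 3.45 and 3.32 in C-ions_0Gy, and it changed by 0.26 after X-rays (adjusted p = 0.0912). A second ID2 probe rose after both beams, by 0.33 (adjusted p = 0.0213) and 0.39 (adjusted p = 0.00862), and another changed by -0.04 and 0.13 and did not pass. SOX10, the neural crest factor of melanocytes, rose by 0.54 after carbon ions (adjusted p = 0.00785), a call lost without replicate 2 of C-ions_2Gy1h; replicate 1 of C-ions_0Gy read 0.60 where the others read 1.28 and 1.00. NDUFA2, a respiratory chain subunit, rose by 0.58, RPL13A, a ribosomal protein, by 0.65, MIA, a secreted melanoma protein, by 0.54, and CKMT2, a mitochondrial creatine kinase, by 0.67. The MIA and CKMT2 calls were lost in the fit to the arrays of all lines. After X-rays these 4 genes changed by -0.08, 0.05, -0.06 and -0.26. The unirradiated carbon-ion arrays lay below the unirradiated X-ray arrays in all 4, by 0.22 to 0.74.

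After X-rays IFIT1, an interferon-induced RNA-binding protein, rose by 0.47 ± 0.07 (limma adjusted p = 0.000284), with 2.42, 2.38 and 2.63 in X-rays_2Gy1h against 1.93, 1.99 and 2.10 in X-rays_0Gy. It changed by 0.12 after carbon ions. After X-rays it was the 1 of 12 interferon-stimulated genes to pass, and none passed after carbon ions. Over all genes 2.26% were called as higher after X-rays, and the median change of the list was 0.03. Among the largest X-ray rises the irradiated arrays disagreed. ALDH1L1-AS2, an antisense transcript, read 2.80, -0.17 and 2.19 in X-rays_2Gy1h against -0.24, -0.34 and -0.37 in X-rays_0Gy, so replicate 2 was near control. Replicate 3 lay far above replicates 1 and 2 for ZMAT5 (5.01 against 3.63 and 3.69) and likewise for SIGLEC10 and CLDN16, although all 3 arrays were above the unirradiated ones. The ZMAT5 call was lost without any 1 of the X-rays_0Gy arrays and with the 12 arrays alone.

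The second question was whether the beams differed. A direct test of the carbon-ion minus X-ray change called 6 of 29291 probes (0.0205%), 1 higher (0.00341%) and 5 lower (0.0171%), and none of the 12727 genes (0%), in limma, with 2828 probes at an unadjusted p under 0.05. Other settings gave between 0 and 17 probes. The median 95% interval of a difference, not adjusted for the number of probes, reached 0.23 to either side with 3 arrays per group. Passing over all probes took more, and the 6 called probes had a median size of 0.62. Differences well above 0.23 could therefore also go undetected. The genes nearest the threshold were ADM, PLA1A and OR14A16, higher by 0.53, 0.54 and 0.48 (adjusted p = 0.059 each), and MIR181A2HG, DKK1 and ACP1, lower by 0.50, 0.41 and 0.62 (adjusted p = 0.074, 0.091 and 0.10). None of these 6 passed. PLA1A, a phospholipase, and ACP1, a small phosphatase, are the 2 genes called in opposite directions. PLA1A changed by 0.29 and -0.25 and ACP1 by -0.30 and 0.31 after carbon ions and X-rays.

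The unirradiated sets differed far more. C-ions_0Gy against X-rays_0Gy gave 12754 called probes (43.5%), 5874 higher (20.1%) and 6880 lower (23.5%). Among genes 49% were called, 29.4% higher and 19.6% lower. TACC1, CDK2 and MSMO1 were higher by 1.89, 1.95 and 1.97 and LINC01467, ADM and BNIP3 lower by 1.25, 1.37 and 1.26. Levels of one beam were therefore not set against levels of the other. ADM, a hypoxia-induced peptide hormone, read 3.91, 3.90 and 3.81 in C-ions_2Gy1h against 3.60, 3.86 and 3.72 in C-ions_0Gy, and 4.72, 4.69 and 4.72 in X-rays_2Gy1h against 5.13, 5.07 and 5.09 in X-rays_0Gy. What part this offset has in the changes called after one beam was not tested.

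The third question was where C32TG differed from the other lines at 1 h. The mean change of both beams in C32TG minus the mean change of the 5 other lines passed for 1142 of 32082 probes (3.56%), 387 higher (1.21%) and 755 lower (2.35%), and for 2.15% of genes (0.849% higher, 1.3% lower). The error of this test is the spread between arrays of a group, not between lines. A call therefore does not say that C32TG lies outside the range of the other lines. Without replicate 3 of C-ions_0Gy 679 probes passed, and with median centring 73.8% of the calls were higher in C32TG, where 33.9% were here. DUSP6 changed by -0.82 in C32TG against -0.20 on average in the other lines (difference -0.62 ± 0.11, limma adjusted p = 0.000209). Colo679 was as low, at -0.96, MeWo was at -0.29, and HMV-I, 92-1 and HMV-II lay between 0.05 and 0.11. LPP changed by -0.60 in C32TG and between -0.19 and 0.17 in the other lines (limma adjusted p = 2.59e-06), but its second, dim probe differed by 0.05 and did not pass. DKK1 changed by -0.50 in C32TG and between -0.29 and 0.14 in the other lines.

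The secreted matrix proteins CCN2, CCN1 and THBS1 were lower in C32TG than in the mean of the other lines. CCN2 changed by -0.28 in C32TG and by 0.63 in HMV-I, 0.84 in 92-1, 0.16 in HMV-II, 0.05 in MeWo and -0.34 in Colo679 (difference from their mean -0.54, limma adjusted p = 2.21e-07). CCN1 changed by -0.24 in C32TG against a mean of 0.26, with Colo679 at -0.92 and 92-1 at 0.98 (adjusted p = 1.30e-05). THBS1 changed by -0.18 against 0.33, a difference lost in 12 of 23 alternatives. ATF3 rose less in C32TG, by 0.31 against 0.38 to 1.00 in the other lines (difference -0.32, adjusted p = 0.00552), which was lost with median centring, with the deposited scaling and without 92-1. For NFKBIA, GADD45A and GADD45B the differences from the other lines were -0.04, 0.00 and 0.03 and did not pass. H3-4 changed by 0.51 in C32TG and between -0.41 and 0.20 elsewhere (adjusted p = 0.00554), and BTF3, a translation-associated factor, by 0.30 against -0.68 to -0.29 (adjusted p = 0.00717).

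**Figure D4:**
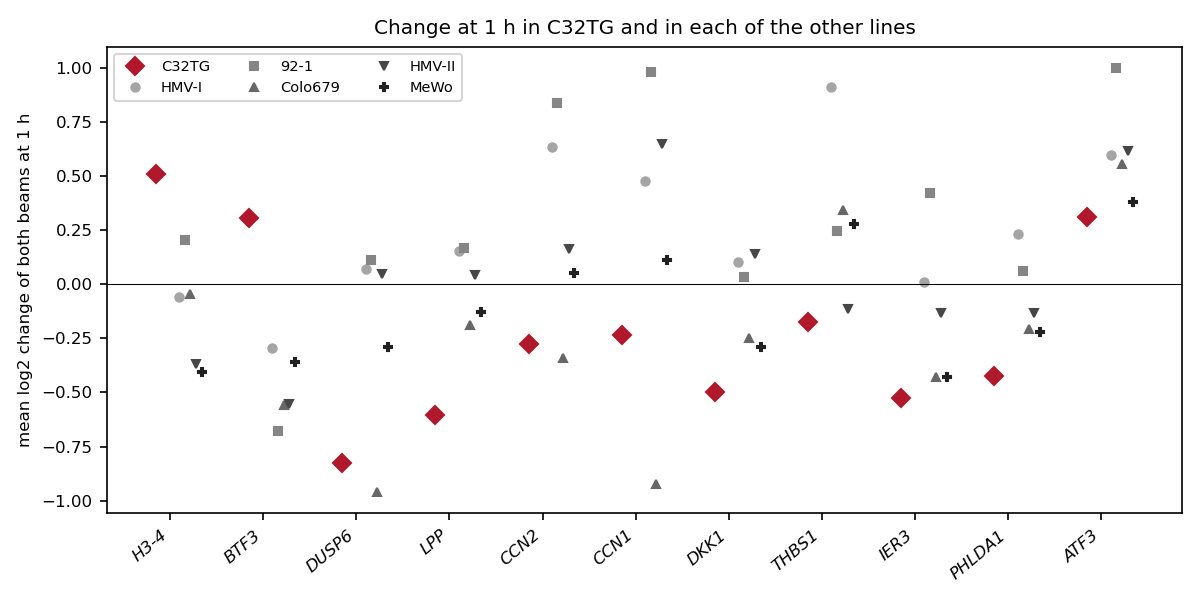
Mean log2 change of both beams at 1 h (vertical axis) of 11 genes in C32TG (diamonds) and in each of the other 5 lines (grey symbols). C32TG lies above the others for H3-4 and BTF3, below them for LPP, DKK1, IER3 and PHLDA1, and Colo679 is lower than C32TG for DUSP6, CCN2 and CCN1.

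Genes that fell and genes that rose differed in length. The median gene length in RefSeq was 33.0 kb for genes that fell and 18 kb for genes that rose after carbon ions, 30.6 and 17.1 kb after X-rays, and 28.4 kb for all tested genes. Rises were called for 5.13% of genes under 10 kb and for 2.30% of genes over 100 kb after carbon ions, and for 3.14% and 1.49% after X-rays. The share that fell was 2.45% and 3.19% after carbon ions and 2.05% and 2.04% after X-rays. This share depended on level. After carbon ions it was 2.853% and 5.373% among the brighter genes, but 2.115% and 1.276% among the dimmer genes. After X-rays it was 1.975% and 2.823% among the brighter genes and 2.115% and 1.356% among the dimmer genes. With median centring the share of rises also dropped with length (16.1% and 8.72% after carbon ions, 3.38% and 1.15% after X-rays), and the share of falls dropped as well (0.96% and 0.55%, and 1.36% and 0.81%). These shares are descriptions across genes, and their link to probe position or RNA quality was not tested.

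**Figure D5:**
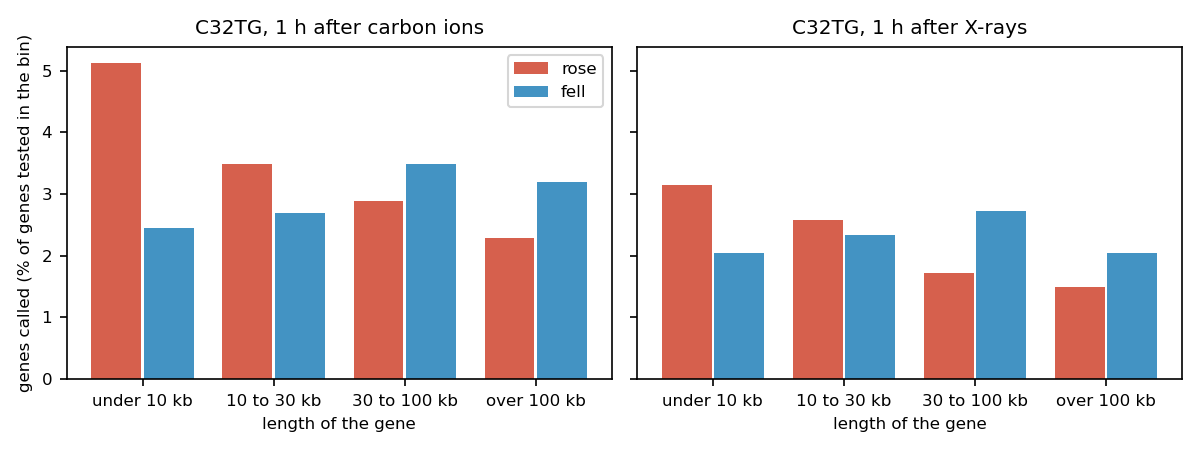
Share of tested genes called as higher (red) or lower (blue) 1 h after carbon ions (left) and X-rays (right), in % of the genes in each of 4 length bins. The share of rises is 5.13% in the shortest and 2.30% in the longest bin after carbon ions, and 3.14% and 1.49% after X-rays.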

How the data were processed

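RNA was extracted with ISOGEN and RNeasy and labelled with biotin for single-colour CodeLink arrays, per the labels' protocols. Values in the deposited table are intensity on a linear scale, with array medians of 1.08 to 1.32 in this line. The authors' software is not given in the sources used here. Values were taken to log2 and quantile-normalized over all arrays of the series. Missing values were ranked below every measured spot and then left missing again, a choice made after seeing the data, since irradiated arrays had more of them. Probes with at most 10% missing values, a mean above the 40th percentile and all values in the 18 C32TG arrays were tested (29291). limma 3.58.1 (R 4.3.3; lmFit, eBayes with a trend) was fitted to 6 groups with 12 residual degrees of freedom, tests were two-sided, and p-values were adjusted by Benjamini-Hochberg over all probes. The comparison with other lines used 72 arrays in 24 groups. Changes are irradiated minus unirradiated, and folds of falls are given as sizes. Symbols came from the platform annotation, with 1 symbol for 23472 probes, and 23434 matched RefSeq (GRCh38.p14). A gene is its brightest kept probe.

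Genes were chosen as up to 10 rises and 10 falls per beam without overlap of arrays. Added were up to 10 each way called after both beams and in the line comparison, and up to 3 each way in the control comparison. Called members of 23 gene lists and a set of damage response genes were added too. The text does not describe every gene so chosen. Among those left out are SDCCAG8 and RASD1 after carbon ions and TIGIT, OTULINL, USP49 and SLC6A15 after X-rays. In the beam difference, which called no gene, 6 genes of smallest p are named where the rule gives 3; the others were chosen after their values were seen. Members and lists were chosen with earlier results of these data known. Same-numbered arrays did not deviate together in every pair (correlations of -0.037 to 0.15 between irradiated and control arrays), so no pairing was used. Between the unirradiated sets every pair exceeded 0.1 (0.129 to 0.348), and the block called 12662 probes there, against 12754 without it. The fit was tested on simulated data. Array numbers limit the precision.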

Additional observations from a re-analysis of the deposited data

Results flagged for a closer look

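These genes are listed because the test of C32TG's mean 1 h change against the mean of the other 5 lines passed for each (limma, adjusted over all probes, log2 differences). C32TG was higher for ALDH1L1-AS2 (0.96, from 2 of the 3 X-ray arrays), BTF3 (0.79), H3-4 (0.65), COX6C (0.64), RPL36AP40 (0.63), RPS23 (0.61), NOL7 (0.61), GABARAP (0.54), HMGN1 (0.52) and RPL13A (0.51). For BTF3, COX6C, RPS23, NOL7 and HMGN1 the change was positive in C32TG and negative in each of the other 5 lines. COX6C, NOL7, RPL13A, RPS23 and RPL36AP40 lost the call in 16, 18, 11, 7 and 5 of 23 alternatives. The second probes of RPS23 (-0.13), NOL7 (-0.08) and COX6C (0.45) did not pass this test. C32TG was lower for DUSP6 (-0.62), LPP (-0.61), CCN2 (-0.54), THBS1 (-0.51), CCN1 (-0.49), ZBTB20 (-0.46), HMCN1 (-0.45), ZNF430 (-0.45), DKK1 (-0.44) and COA1 (-0.44). ZBTB20, a zinc-finger repressor, changed by -0.38 in C32TG and by 0.02 to 0.12 in the other lines, and 2 of its 3 further probes were also lower in C32TG. The second probes of LPP (0.05), COA1 (-0.04) and THBS1 (-0.18) did not pass this test. THBS1 lost the call in 12 of 23 alternatives, and HMCN1 with median centring and with the deposited scaling. Groups of 3 arrays were not searched for single outlying arrays.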

How the results depend on the processing

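Counts moved by over 1.5 times in these settings. With median centring 4250 probes were called after carbon ions, 6956 for the mean of both beams, 1 for the beam difference and 2460 against other lines. With the deposited scaling 1364 were called after X-rays, 717 after both beams and 1 for the beam difference. A fit to the arrays of all lines gave 1276 after carbon ions, 1092 after X-rays, 2596 for their mean and 524 after both. Quantile normalization that ignored missing values, added after seeing the data, gave 3610 after X-rays and 0 for the beam difference, and median centring on measured values gave 1 for that difference. Quantiles over the 18 C32TG arrays gave 17 and the 12 arrays alone 0 for it (6 as reported). Rises made up 66.7% of carbon-ion and 21% of X-ray calls with the deposited scaling and 24% and 3.1% with median centring on measured values. Scaling moved the median change after X-rays between -0.11 and 0.042 and after carbon ions between -0.048 and 0.097. Leaving out single arrays gave 1931 to 3032 after carbon ions, 1442 to 2224 after X-rays, 3678 to 4375 for their mean, 0 to 9 for the difference, 913 to 1149 after both, 10345 to 12955 between controls and 679 to 1160 against other lines. The lowest X-ray count came without replicate 2 of X-rays_0Gy and the lowest line count without replicate 3 of C-ions_0Gy. With the replicate number as a block (replicate block), 2804, 2181, 4419 and 1205 probes were called after carbon ions, X-rays, their mean and both beams, 6 for the difference, 12662 between controls and 1385 against other lines. Single-gene calls were checked for a fixed set of 126 gene results, some of them for genes not named here. Of these, 59 kept their call in every alternative, 67 lost it in at least 1, and 0 reversed. Calls of other genes in the text, among them SPACA9, POLR2J4, ZNF674-AS1, BCL2A1, BAD, TXNRD1 and ATF4, were not checked in this way. The causes were not tested.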

Other observations

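Other listed groups had few called members at 1 h. Over all genes, 3.47% were called as higher and 2.96% as lower after carbon ions, and 2.26% and 2.33% after X-rays, and the counts here stand against these shares. None of 21 G1/S and DNA replication genes passed after either beam. Of 30 G2 phase and mitosis genes, 3 fell after carbon ions (PIF1, ASPM and FBXO5; 2.96% of all genes) and 1 rose after X-rays (NEK2, a centrosome kinase, by 0.30; 2.26% of all genes). ASPM, a spindle protein, changed by -0.19 and FBXO5, an inhibitor of the anaphase-promoting complex, by -0.21 after carbon ions, and both calls were lost with median centring. PLK1, the main mitotic kinase, changed by 0.06 and -0.01 and did not pass. Of 18 DNA damage sensing and repair genes, RAD52 and PRKDC fell after carbon ions, calls lost with median centring, and none passed after X-rays. Of 14 apoptosis regulators, BCL2A1 and BAD rose after carbon ions, by 0.32 and 0.41 (3.47% of all genes called as higher), and none passed after X-rays. Of 7 NRF2 targets, TXNRD1, thioredoxin reductase, rose by 0.25 after carbon ions, while a second, dim probe did not pass (0.16).

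Of 14 ID, SMAD and TGF-beta response genes, ID2 rose and SKIL and THBS1 fell after carbon ions, and ID1 fell after X-rays. The shares of all genes were 3.47% higher and 2.96% lower after carbon ions and 2.33% lower after X-rays. With median centring 3 rose and none fell after carbon ions, and 1 rose and 1 fell after X-rays. A second, dim SKIL probe did not pass. In the mean of both beams, ID1, ID3, SKIL, THBS1 and HES1 were lower and ID2 and KLF11 higher. Over all genes 6.33% were called as higher and 4.76% as lower in that mean. Further probes of ID1 (-0.42), THBS1 (-0.15) and ID2 (0.36) passed there in the same direction. Those of SKIL (-0.08) and KLF11 (0.12 and -0.08) and another ID2 probe (0.05) did not pass. NEAT1, the scaffold RNA of paraspeckles, fell by 0.27 after X-rays at its brightest probe (limma adjusted p = 0.0292). Its second, dimmer probe fell by 0.66 after carbon ions (adjusted p = 0.00268) and by 0.46 after X-rays (adjusted p = 0.0381). The X-ray call of the brightest probe was lost in 7 of 23 alternatives, and it was the 1 call among 4 nuclear RNA and paraspeckle genes.

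Of 9 heat shock genes, HSPA1A fell after carbon ions and HSP90AB1 fell by 0.25 after X-rays. Of 12 genes of the integrated stress and unfolded protein responses, DDIT3 fell by 0.26 after carbon ions, while after X-rays DDIT4 fell and ATF4, the transcription factor of the integrated stress response, rose by 0.24. Of 11 ribosomal proteins RPL13A rose after carbon ions, and of 12 respiratory chain genes NDUFB9 rose after carbon ions by 0.27 and COX5B after X-rays by 0.22. Of 8 histone genes H2BC12 rose after X-rays by 0.27. Of 11 melanocyte markers SOX10 rose after carbon ions, of 7 markers of dedifferentiated melanoma CCN1 fell after X-rays, and none of the tested fibroblast, keratinocyte or leukocyte markers passed after either beam.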
